A study of Homo sapiens with 2 samples.

Results

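DKK4 and 9 other genes known as feedback targets of Wnt/beta-catenin signalling (DKK1, AXIN2, LGR5, NKD1, SP5, NOTUM, RNF43, ZNRF3 and TCF7) were followed in HepG2 cells given hawk tea extract (HTE) or dimethyl sulfoxide (DMSO). DKK4 was chosen for its large fall on these same arrays, so its values are a description and support nothing, and the others were taken as textbook members of the same feedback loop with results of these arrays known. Probes were taken by their RefSeq transcript, which gave 14 probes of 50532 and 10 genes of the 23752 genes and unnamed transcripts with a measurable probe.

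HepG2 is an established human hepatoblastoma-derived line, often described as hepatocellular carcinoma, that keeps many hepatocyte functions. One culture condition was HTE for 24 h, and the other was the DMSO vehicle for 24 h, both in high-glucose medium with fetal bovine serum. The dose of HTE is 200 µg/mL in the sample labels, whereas the name of the deposited array has 300. The paper's text gives the higher dose for these arrays and reports that it lowered the viability of HepG2 cells. Whether lower viability had a part in the ratios below was not tested. Total RNA was labelled with Cy3 and hybridised to 1-colour Agilent human expression arrays, with 1 array per condition on 1 slide. With 1 array each, array and treatment cannot be told apart, there is no replicate check, and no p value or spread between cultures is given.

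In the canonical Wnt pathway, a Wnt ligand bound to a Frizzled receptor and an LRP coreceptor stops the destruction complex from marking beta-catenin for degradation. Beta-catenin then enters the nucleus and works with TCF/LEF factors on target genes. Several of these targets are themselves brakes on the pathway, so their RNA is widely used as a readout of it. In the liver the pathway is known for setting the gene programme of hepatocytes around the central vein, and it is often mutated in liver tumours. HepG2 cells carry a deletion in CTNNB1 that leaves a stable beta-catenin, so the pathway is known to be active in the cells without added ligand. Whether each target here depends on it was not tested.

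All levels below are the log2 processed signal of a probe minus the 75th percentile of its array, and a log2 ratio is the HTE level minus the DMSO level. The 75th percentile was a signal of 4020 on the DMSO array and 3570 on the HTE array, and 60.6% and 56.6% of the spots that are not controls were well above background, with 0 saturated. Replicate spots of 1 probe gave log2 ratios with a median SD of 0.051, and different probes of 1 gene gave 0.16. The software's own error on a log2 ratio of the probes that stand for the 10 genes was 0.20 to 0.26. None of these errors holds the variation between cultures.

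All 14 probes of the 10 genes were well above background on both arrays, and all 14 were lower on the HTE array. DKK4 and DKK1 were at least 2-fold lower, 2 of 10 genes, where 3.03% of all 23752 were. None of the 10 was at least 2-fold higher, where 5.25% of all genes were. All 10 lay below 0, where 49% of all genes did, and their median log2 ratio was -0.56 against 0.00 over all genes. The fall of DKK4 chose the list, so it is part of these counts by choice. In 8 of the 10 genes the difference was larger than both the software error and the median SD among probes of a gene, and in AXIN2 and SP5 it was smaller than both. ZNRF3 (-0.25) and TCF7 (-0.22) passed a software error of 0.20 by little. The share of all genes that passed these errors was not counted, so the count does not set the 10 apart.

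**Figure D1:**
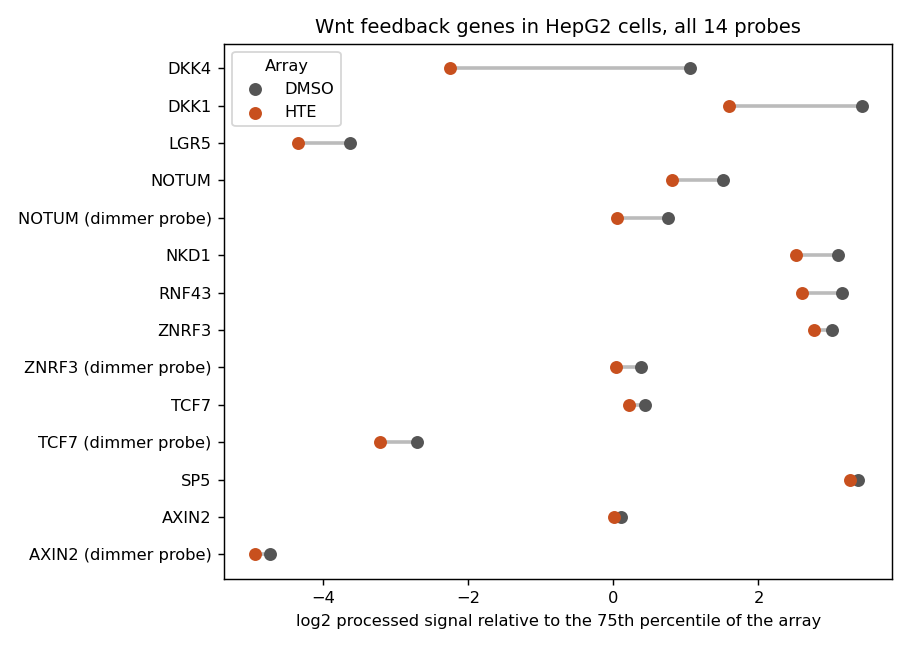
Log2 processed signal relative to the array's 75th percentile for all 14 probes of the 10 genes, 1 point for the DMSO array and 1 for the HTE array, joined by a line; there is 1 array per condition, so no error bars are drawn. Every HTE point lies left of its DMSO point, with the longest lines for DKK4 (1.06 to -2.25) and DKK1 (3.43 to 1.60).

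The secreted antagonists of the Dickkopf family had the 2 lowest ratios of the 10. DKK4, which binds the LRP coreceptors and keeps them from the Wnt ligand, had a processed signal of 8362 on the DMSO array and 751 on the HTE array. Its level was 1.06 on the DMSO array and -2.25 on the HTE array, so that it went from above the 75th percentile of its array to well below it. The log2 ratio was -3.31 with a software error of 0.21, a level on the HTE array of 10.1% of that on the DMSO array, or 9.89-fold lower. It ranked 3 from the bottom of 23752, and of the 14633 named genes measured on both arrays only 1 (DGKK) had a lower ratio. This is a single probe with 1 spot. In bulk RNA, fewer cells making DKK4 and less DKK4 RNA per cell cannot be told apart.

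DKK1, the best known Dickkopf antagonist, acts on the same coreceptors. Its signal was 43232 on the DMSO array and 10826 on the HTE array. The level was 3.43 and 1.60, so DKK1 stayed above the 75th percentile of both arrays. Its log2 ratio was -1.83 with a software error of 0.20, which left 28.2% of the DMSO level, a 3.55-fold difference, and put it at rank 66 from the bottom. No member lay close inside the 2-fold line, since DKK1 was the nearest on that side and the next member, LGR5, lay outside it at a log2 ratio of -0.72, a gap of 1.11.

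The 5 named genes above background on both arrays with the log2 ratios nearest to that of DKK4 were SLC6A14 (-3.28), DGKK (-3.34), HOXD1 (-2.89), CYP24A1 (-2.85) and MKI67 (-2.27). The likeness is the distance between log2 ratios over 1 pair of arrays, 0.023 for SLC6A14 and 1.04 for MKI67, so few genes lay near DKK4. MKI67 is a marker of dividing cells, and its level was 1.46 on the DMSO array and -0.81 on the HTE array. Its 3 probes had log2 ratios of -2.27 to -1.01. Whether cell division had a part in the DKK4 and DKK1 values was not tested.

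**Figure D2:**
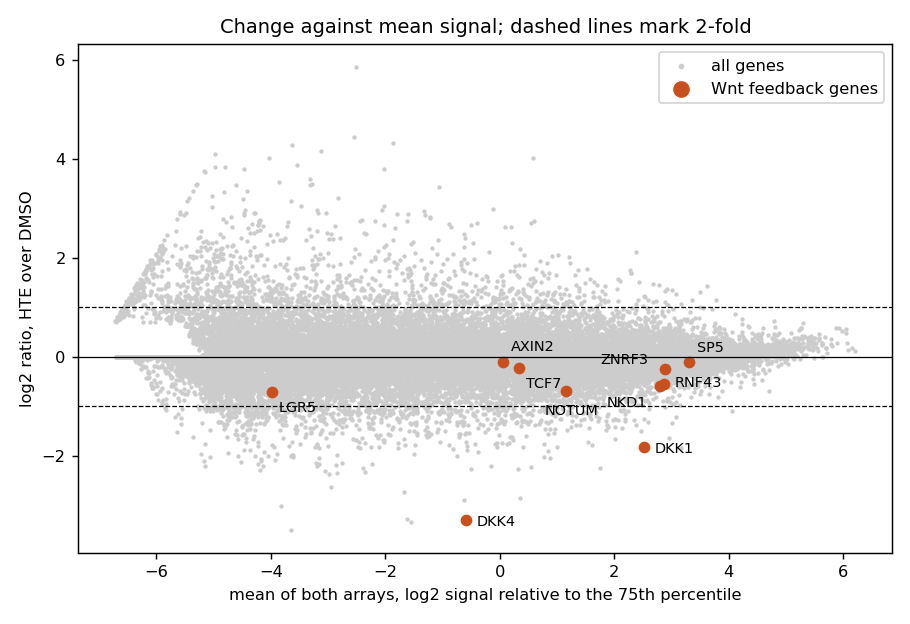
Log2 ratio of HTE over DMSO (y axis) against the mean log2 signal of both arrays relative to the 75th percentile (x axis), with all genes in grey, the 10 Wnt feedback genes in colour and dashed lines at 2-fold; the sharp edge at low signal comes from genes that enter as bounds because they were measured on 1 array. DKK4 at -3.31 and DKK1 at -1.83 lie below the lower dashed line, and the other 8 genes lie between it and 0.

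The core CTTTGA, 1 of the forms that TCF/LEF factors are known to bind, was present in the promoter windows of 2 of the 4 genes that had one. RefSeq promoter windows (GRCh38.p14, from 250 bases before to 50 bases after a gene start) matched 4 of the 10 genes, DKK1, RNF43, SP5 and TCF7, in 6 windows. They were searched for this core, read as TCAAAG on the other strand, and for its longer form CTTTGAT, which contains the core. Other forms of the motif were not searched. The 250 bases before the start are shown for DKK1, chr10:52314031-52314280 on the plus strand, and for SP5, chr2:170715087-170715336 on the plus strand, because these windows held the core while the 2 genes lay far apart in their ratios. Capitals mark the core on either strand.
DKK1: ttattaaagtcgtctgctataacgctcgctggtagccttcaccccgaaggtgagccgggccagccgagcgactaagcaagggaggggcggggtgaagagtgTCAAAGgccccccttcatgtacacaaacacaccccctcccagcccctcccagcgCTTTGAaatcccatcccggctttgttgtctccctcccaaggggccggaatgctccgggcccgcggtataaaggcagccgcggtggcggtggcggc
SP5: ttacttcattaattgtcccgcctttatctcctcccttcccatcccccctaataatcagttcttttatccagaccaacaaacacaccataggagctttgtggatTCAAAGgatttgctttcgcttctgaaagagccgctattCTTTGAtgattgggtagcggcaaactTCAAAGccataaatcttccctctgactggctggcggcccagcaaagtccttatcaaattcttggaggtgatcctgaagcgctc

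The DKK1 window held 2 cores, starting at -149 and -95 from the gene start, and no CTTTGAT. The SP5 window held 3 cores, starting at -147, -109 and -83, and the longer form was present. Counted by window, 2 of the 6 windows of these genes held the core. Of all 35116 windows, 12.9% held the core, 1.29% held at least 2 and 0.0997% held at least 3, and 2.62% held CTTTGAT. The windows of RNF43 and TCF7 held no core. A match is a description of letters and not a binding site. The gene with 3 cores, SP5, had a log2 ratio of -0.11, while DKK1 with 2 had -1.83. The windows also differed in base composition, with 62.8% G and C and 18 CG pairs for DKK1 against 45.6% and 6 for SP5, where the median window had 58% and 11.

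Of the members that sit in the cell membrane, LGR5, RNF43 and ZNRF3, each was lower by less than 2-fold. LGR5, a receptor for R-spondins that strengthens Wnt signalling and marks stem cells in several tissues, had a signal of 326 on the DMSO array and 176 on the HTE array. Its level was -3.63 and -4.34, a log2 ratio of -0.72 with the largest software error of the 10, 0.26. LGR5 lay far below the 75th percentile on both arrays. RNF43, a membrane ubiquitin ligase that removes Frizzled receptors from the surface, went from a signal of 35559 to 21628. Its log2 ratio was -0.55, which left 68.5% of the DMSO level. ZNRF3, the close relative of RNF43 with the same task, had a log2 ratio of -0.25 at its brighter probe (32446 to 24287) and -0.34 at its dimmer one (5232 to 3682). Both of these ligases are held in check by R-spondin bound to LGR receptors, and both had a lower level on the HTE array.

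NOTUM, a secreted enzyme that strips the lipid from Wnt ligands and so disarms them, was measured by 2 probes that gave nearly the same ratio. The brighter went from a signal of 11417 to 6280 and the dimmer from 6750 to 3685. The log2 ratios were -0.69 and -0.70, close to 62% of the DMSO level (61.9% and 61.5%). The gap between the 2 probes was smaller than the median SD among probes of a gene.

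Inside the cell, NKD1 and AXIN2 are brakes on the relay from receptor to beta-catenin. NKD1, which binds Dishevelled, had a signal of 34488 on the DMSO array and 20456 on the HTE array. Its log2 ratio was -0.58 with a software error of 0.20, or 66.8% of the DMSO level. AXIN2, a scaffold of the destruction complex and the most used readout of the pathway, had 4343 and 3610 at its brighter probe. The log2 ratio there was -0.10, with 93.6% of the DMSO level left, smaller than its software error of 0.20. Its dimmer probe (152 to 116) gave -0.22 with an error of 0.35. AXIN2 had the smallest difference of the 10, next to SP5, and ranked 9434 of 23752.

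SP5 and TCF7 are transcription factors. SP5, a zinc finger repressor and direct target of beta-catenin, had a signal of 41651 on the DMSO array and 34224 on the HTE array. Its log2 ratio was -0.11, 92.5% of the DMSO level, and its software error was 0.20. TCF7, a member of the TCF/LEF family and itself a target, was measured by a probe spotted 10 times, of which 9 pairs could be used. That probe had a mean signal of 5466 and 4162 and a log2 ratio of -0.22, with an SD of 0.031 among its spot pairs. A second probe of TCF7, with a signal of 615 and 384, gave -0.51 with a software error of 0.22, so the 2 probes had the same direction and differed in size.

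By log2 ratio the 10 genes ran from DKK4 (-3.31) and DKK1 (-1.83), through LGR5 (-0.72), NOTUM (-0.69), NKD1 (-0.58) and RNF43 (-0.55), to ZNRF3 (-0.25), TCF7 (-0.22), SP5 (-0.11) and AXIN2 (-0.10). The step from DKK4 to DKK1 and the step from DKK1 to LGR5 were each larger than the software errors of both genes. From LGR5 to RNF43 the neighbours lay closer together than the software error, and so did those from ZNRF3 to AXIN2. The gap between RNF43 and ZNRF3 was 0.30, but it holds the software errors of both ratios, 0.20 each. At their dimmer probes ZNRF3 (-0.34) and TCF7 (-0.51) lay nearer to RNF43, so no break is drawn there. In ranks, LGR5, NOTUM, NKD1 and RNF43 lay within the lowest 7.19% to 11.8% of all genes, whereas AXIN2 and SP5 lay near the middle (39.7% and 38.4%). The median log2 ratio of the spots around a probe was 0.04 for DKK4 and -0.12 for DKK1, and between -0.10 and 0.10 for the other 8. For SP5 the surrounding spots, at -0.10, differed between the arrays about as much as SP5 itself.

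The other genes of the pathway, counted by role without the 10 genes above, lay on both sides of 0. Of 134 listed, 104 were measured, 53 of them (51%) lay below 0, 6 were at least 2-fold lower and 7 at least 2-fold higher, and the median log2 ratio was -0.0044. Over all genes, 49% lay below 0, 3.03% were at least 2-fold lower and 5.25% at least 2-fold higher. The 8 measured secreted and membrane inhibitors other than DKK4 and DKK1 had a median of 0.15, with 2 below 0 and 0 at least 2-fold apart. The highest was SFRP4, a decoy that binds Wnt ligands, at 0.80, and the lowest was DKKL1, a distant Dickkopf relative, at -0.42. Neither array had DKK2 well above background, and DKK3 had a log2 ratio of 0.12, so DKK4 and DKK1 were the only Dickkopf genes on these arrays at least 2-fold lower.

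Of the 19 Wnt ligands, 10 were not well above background on either array, and of the 9 measured 3 were at least 2-fold higher and 0 at least 2-fold lower. Over all genes, 5.25% were at least 2-fold higher and 3.03% at least 2-fold lower. WNT11, which often acts without beta-catenin, went from a level of -1.83 to 0.84, 6.39-fold higher. WNT6 was 2.20-fold higher at low levels (-4.28 and -3.14), and WNT9A was at least 2.20-fold higher, with the DMSO array not above background. Among the 3 genes of Wnt secretion, WLS, which carries ligands to the surface, had a log2 ratio of 0.51 and PORCN, which adds their lipid, -0.07. Of the 15 receptors and coreceptors, 10 lay below 0, where 49% of all genes did, and the median was -0.22. FZD9, a Frizzled receptor, was 2.30-fold lower. The list medians of the ligands and of the R-spondins with their receptors rest on few measured genes and moved with the treatment of dim probes. Without a filter on dim probes the ligand median was 0.65 in place of 0.32. For the R-spondins and their receptors, LGR5 included, it was 0.67 in place of -0.13, and -0.72 where a dim probe kept its own value. All 4 R-spondins were not well above background on either array, and LGR4, the wider expressed relative of LGR5, had a log2 ratio of -0.13.

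**Figure D3:**
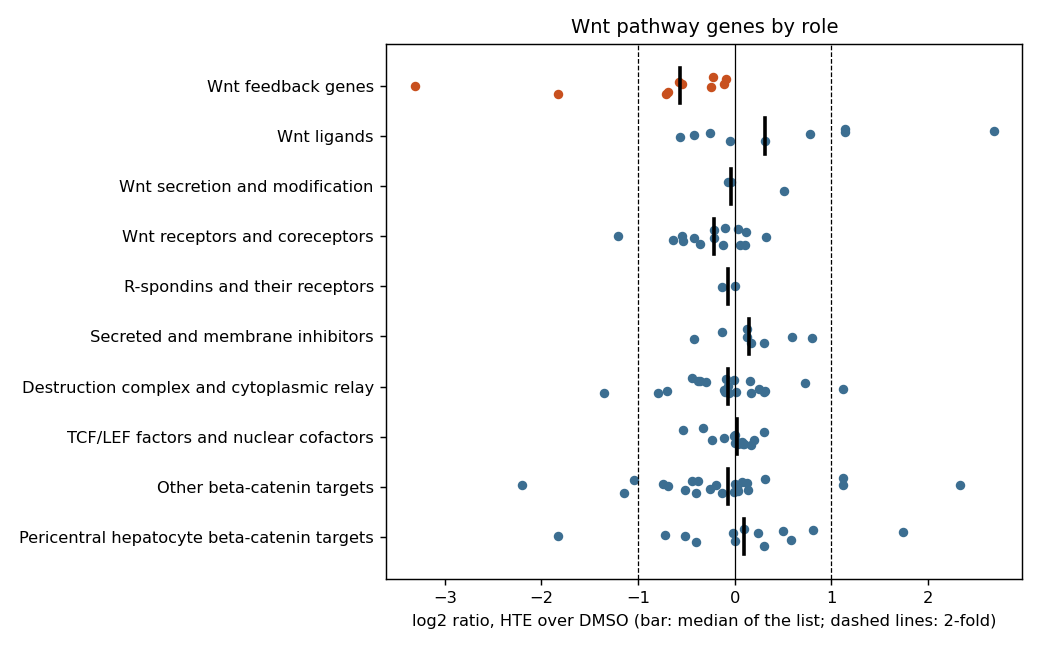
Log2 ratio of HTE over DMSO for every measured Wnt pathway gene, 1 point per gene, grouped by role; bars mark each list's median, dashed lines mark 2-fold, and the 10 feedback genes are left out of the other lists. The feedback genes, among them DKK4 chosen for its fall, lie all below 0 with a median of -0.56. The medians of the other lists lie between -0.22 (receptors) and 0.32 (ligands).

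Of the 21 genes of the destruction complex and cytoplasmic relay, 13 lay below 0, where 49% of all genes did, and the median was -0.07. AMER1, which tethers the complex at the membrane, was 2.55-fold lower, and NKD2, the sister gene of NKD1, was 2.17-fold higher, so NKD1 and NKD2 lay on opposite sides of 0. CTNNB1, which encodes beta-catenin and is named here outside the rule, had a level of 3.12 and 3.01, a log2 ratio of -0.10 at its brighter probe and 0.28 at its other. The 15 measured TCF/LEF factors and nuclear cofactors other than TCF7 had a median of 0.02 and 0 were 2-fold apart, with TCF7L2 lowest at -0.54 and CBY1, an antagonist of beta-catenin, highest at 0.30.

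Of the other targets of beta-catenin, 24 of 26 were measured, 3 were at least 2-fold lower, 3 at least 2-fold higher, and the median was -0.07. The shares over all genes were 3.03% at least 2-fold lower and 5.25% at least 2-fold higher. CCND1, the cyclin that drives entry into S phase, was 2.21-fold lower, and ASCL2, an intestinal stem cell factor, 2.06-fold lower. FGF9 was 4.59-fold lower at its brighter probe, but its other probe had a log2 ratio of 1.05. SOX4 was 2.18-fold higher, NKD2 is the gene given above, and MMP7, a matrix protease, was at least 5.04-fold higher, since it was not above background on the DMSO array. Pericentral targets of hepatocytes, without the 10 genes, had a median of 0.10 over 13 measured of 17, with SLC13A3 3.55-fold lower and the glutamate transporter SLC1A2 3.35-fold higher. The median of the feedback genes was below that of every other list, but DKK4 entered that list for its fall on these arrays. The other members were chosen with results of these arrays known. Whether the lists differ was not tested.

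Markers of hepatoma were measured, and so were some of those listed for other cells. All 12 of 12 hepatoma genes were well above background, none was 2-fold apart, and their log2 ratios ran from -0.36 (FGB) to 0.21 (APOA2), with a median of 0.11. Of 11 markers of other cells and of division, 4 (CD3E, CDH5, COL1A2 and DCN) were not above background on either array. The other 7 had levels from -3.15 to 4.61 on the DMSO array and -4.14 to 4.97 on the HTE array. Of them, 2 were at least 2-fold lower, MKI67 and the endothelial gene PECAM1 (-2.32 to -4.14), where 3.03% of all genes were. The brightest on the DMSO and HTE arrays were KRT19 (4.61 and 4.97), EPCAM (3.67 and 4.01) and ACTA2 (2.31 and 2.47). Of the hepatoma genes, HNF4A was the dimmest, at -2.19 and -2.05. These markers do not by themselves set the cell type.

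**Figure D4:**
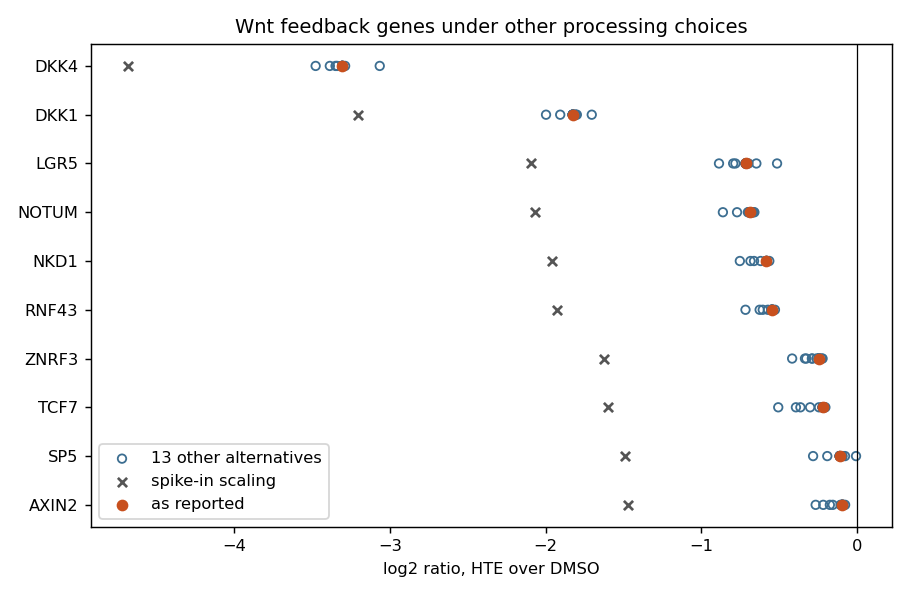
Log2 ratio of HTE over DMSO for the 10 genes as reported (filled points) and under 14 other processing choices, of which 13 are open circles and spike-in scaling is a cross. All values of all 10 genes stay below 0, with DKK4 between -4.68 and -3.07, and AXIN2 and SP5 lie nearest to 0, up to -0.078 and -0.0077. For the 6 genes with 1 probe, the points of other filters and probe choices fall on the reported value.

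With other processing, the sign of all 10 ratios stayed below 0 in each of the 14 alternatives run, and the order of DKK4 and DKK1 ahead of the rest did not turn in any of them. Many of these could not move a ratio. For the 6 members with 1 probe, the other filters and probe choices and the kept outlier spots returned the reported value. Scalings that take 1 value per array shifted all genes measured on both arrays together. Quantile normalization moved genes by unequal amounts, with DKK4 at -3.34 and DKK1 at -1.81. SP5 came nearest to 0, at -0.0077 once the ratio of its neighbouring spots was subtracted. Scaling to the E1A spike-in probes moved the median of all genes by -1.37, which turned WNT6, NKD2 and SOX4 from higher to lower and left no fold for WNT9A, so the ratios here are relative to the bulk of the genes.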

How the data were processed

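The files deposited by the authors are Agilent Feature Extraction output, version 11.5.1.1 in the file header and 10.7 in the submitters' processing notes, whose processed signal is a background-subtracted intensity that was not scaled between arrays. The study used a 2-fold cutoff, with the scaling of arrays not given in the sources used here.

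From these values control and outlier spots were dropped, log2 was taken, each array's 75th percentile over spots that are not controls was subtracted, and the spots of a probe were averaged. Probes stayed in if a share of 0.5 or more of their spots passed the well-above-background flag on either array, which left 29680 probes and 23752 genes or unnamed transcripts. A probe measured on 1 array only (2783 on DMSO, 536 on HTE) entered as a bound, and a bound under 1-fold as 0. Of 50532 probes, 28142 were named by RefSeq accession in the gene table of GRCh38.p14, and the rest kept their transcript name. The file header names another build, so no probe coordinates are given. The brightest probe stands for a gene. A log2 ratio of 1 or more in size, 2-fold, was counted. The named genes are all 10 members, each other list's genes at least 2-fold apart or its largest rise and fall, and the 5 nearest DKK4. Members and lists were chosen with earlier results of these data known. Further genes named outside the rule are CTNNB1, DKK3, HNF4A, KRT19, EPCAM and ACTA2. No test was run, since each group has 1 array.

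Alternatives were other scalings, normexp (offset 50, median signal) in limma 3.58.1 with R 4.3.3, other filters and probe choices, cutoffs of 1.5-fold and 3-fold, and the ratio of neighbouring spots within 5 rows and columns subtracted, which was chosen after seeing the data. Steps were tested on simulated data. The other steps ran in Python 3.11.15 (pandas 2.3.3, numpy 2.4.6, matplotlib 3.10.9). The number of arrays limits the precision.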

Additional observations from a re-analysis of the deposited data

How the results depend on the processing

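No paired analysis was possible because each condition holds a single array. The log2 ratio of DKK4 was -3.48 with no scaling, -4.68 with scaling to the E1A spike-in probes and -3.07 with normexp. The member median was -0.74 with no scaling and -1.94 with spike-in scaling. The number of members at least 2-fold lower was 2 as reported, 10 with spike-in scaling, 4 at a cutoff of 1.5-fold, where 10.5% of all genes were lower by that much, and 2 at 3-fold, where 0.543% were. All 10 were lower, and 0 at least 2-fold higher, under each alternative run, though filters and probe choices could not move the 6 members with 1 probe. The median of all genes moved by -0.16 with no scaling, by -1.37 with spike-in scaling and by 0.21 with no filter on dim probes, and the 8 E1A probes themselves differed by 0.45 to 1.57 in log2 signal. The share of all genes at least 2-fold lower and higher was 3.03% and 5.25% as reported, 5.09% and 3.72% with no scaling, 78.2% and 0.467% with spike-in scaling, 1.97% and 3.47% with normexp, and 5.56% and 5.65% where a dim probe kept its own value. The median of the secreted inhibitors, members included, went from 0.12 to -0.05 with no scaling, and that of the hepatoma genes from 0.11 to -0.07. No scaling and spike-in scaling only changed the value subtracted from each array, so genes measured on both arrays moved by a common amount. Why the spike-in and other scalings differed, and the cause of the remaining moves, was not tested. LGR5, the dimmest member, has the largest software error.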
